A study of Sus scrofa with 6 samples.

Results

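FOS, DUSP1 and DUSP5 were followed in pig endometrial epithelium, the lining of the uterus, grown as a primary culture and sequenced at passage 3. These 3 genes were taken by symbol from 10915 genes with values in the deposited table. They had been picked because their values in exosome libraries were lower than in control libraries within a list of immediate early genes, so that difference is described here without a test. The exosome group (EXO) received 10 µg per well of exosomes for 48 h, and the control group (CTRL) received none, with 3 libraries in each group. Exosomes are small membrane vesicles, here precipitated with a commercial polymer reagent from the sperm-rich fraction of boar seminal fluid. The cells came from uteri collected at a slaughterhouse and grew on collagen-coated plates in medium with serum, in both groups. Whether replicate libraries stem from different uteri or different wells is not stated, so the spread that every p-value here measures may be technical.

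FOS encodes a subunit of AP-1, a transcription factor made of FOS-family and JUN-family proteins. Growth factors, serum and stress switch its gene on within minutes through the MAP kinases ERK, JNK and p38, and the transcript is short-lived. DUSP1 and DUSP5 encode phosphatases that remove phosphate from MAP kinases in the nucleus. DUSP1 acts on p38, JNK and ERK, whereas DUSP5 is selective for ERK. Both phosphatase genes are themselves induced by MAP kinase signalling and form a negative feedback on it. In the RefSeq annotation of Sscrofa11.1, the assembly named in the submitters' processing notes, FOS (ENSSSCG00000002383) lies on chromosome 7 from 98449508 to 98451971, DUSP1 (ENSSSCG00000016991) on chromosome 16 from 51457924 to 51461095, and DUSP5 (ENSSSCG00000010624) on chromosome 14 from 120906340 to 120919398. These spans cover whole genes, exons and introns together. DUSP5 was placed by its symbol alone, because its identifier has no entry in the reference name table, whereas the identifiers of FOS and DUSP1 are listed there under the same symbols.

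The deposited values are FPKM, in which fragments are divided by transcript length and by the size of the library, and their sums were 690258 to 711250 in the exosome libraries and 721273 to 732922 in the control libraries. Sequencing depth is unknown. Markers of epithelium, the cell type given by the label, were abundant. KRT8, a keratin of simple epithelia, averaged 2800.2 FPKM in exosome and 3037 FPKM in control libraries. EPCAM averaged 358 FPKM in exosome and 346 FPKM in control libraries. Of 11 symbols for endometrial epithelium 8 were found, and their summed level was 11331 to 12416 FPKM in exosome and 13131 to 13548 FPKM in control libraries. Of 9 stromal symbols 5 were found, summing to 2274 to 2494 FPKM in exosome and 2788 to 3042 FPKM in control libraries, most of it THY1, listed as CD90. Markers of endothelium (1 of 6 found, KDR) lay between 0.968 and 1.16 FPKM in exosome and between 1.26 and 1.96 FPKM in control libraries. Leukocyte markers (4 rows) summed to 9.49 to 12.5 FPKM in exosome and 10.8 to 12.3 FPKM in control libraries. The smooth muscle transcript TAGLN, 1 of 5 such symbols found, lay between 78.5 and 140.1 FPKM in exosome and between 127 and 141 FPKM in control libraries. Epithelial, stromal and endothelial sums were lower in every exosome library than in any control library, beside the lower values of FOS, DUSP1 and DUSP5 given next, and their part in those values was not tested. The sum of all FPKM was also lower in every exosome library. Among stromal rows only THY1 separated the groups, and the endothelial sum is KDR alone. KRT8, CLDN4, MUC1, ELF3 and CD24 were lower without overlap, whereas KRT18, KRT19 and EPCAM overlapped, and EPCAM averaged higher in exosome libraries. In bulk RNA, fewer cells of a type and less RNA per cell cannot be told apart.

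FOS was lower in every exosome library than in any control library. It was at 22.4, 20.9 and 23.7 FPKM in exosome replicates 1, 2 and 3, against 28.2, 25.9 and 28.1 FPKM in control replicates 1, 2 and 3. The groups did not overlap, and exosome replicate 2 held the lowest of the 6 values. FOS averaged 22.3 ± 1.41 FPKM in exosome and 27.4 ± 1.28 FPKM in control libraries (SD, n = 3 each), a ratio of 0.814. On the log2(FPKM + 1) scale used throughout, the difference of exosome minus control was -0.29 (SE 0.07). Groups that do not overlap, with the exosome libraries lower, occurred in 10.4% of the 10846 genes tested, and the order seen for FOS, with exosome replicate 2 lowest of all, in 2.22%.

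DUSP1 was at 180.4, 202 and 179 FPKM in exosome replicates 1, 2 and 3, against 203, 199 and 212 FPKM in control replicates 1, 2 and 3. Exosome replicates 1 and 3 lay below every control library, and replicate 2 lay above control replicate 2, so the groups overlapped. The averages were 187 ± 12.8 FPKM in exosome and 205 ± 6.67 FPKM in control libraries (SD, n = 3 each), a ratio of 0.915 and a log2 change of -0.13 (SE 0.06).

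DUSP5 was at 153, 199 and 164 FPKM in exosome replicates 1, 2 and 3, against 194, 203 and 206 FPKM in control replicates 1, 2 and 3. Exosome replicates 1 and 3 again lay below every control library, while replicate 2 lay above control replicate 1. DUSP5 averaged 172 ± 24.0 FPKM in exosome and 201 ± 6.05 FPKM in control libraries (SD, n = 3 each), a ratio of 0.854 and a log2 change of -0.23 (SE 0.09). Its coefficient of variation was 14.0% among exosome and 3.01% among control libraries, where the medians over the 879 genes within 2-fold of its mean level were 5.47% and 3.19% for the same groups. For DUSP1 the coefficient was 6.87% in exosome and 3.26% in control libraries, where genes within 2-fold of its level had medians of 5.44% and 3.18%. For FOS it was 6.33% in exosome and 4.67% in control libraries, with such medians of 6.58% and 4.49%. Without exosome replicate 2 the log2 change was -0.34 for DUSP5, -0.19 for DUSP1 and -0.24 for FOS. The pattern of DUSP1 and DUSP5, with exosome replicates 1 and 3 below all controls and replicate 2 not, occurred in 10.6% of all genes tested. That is 50.6% of the genes with exosome replicates 1 and 3 below all controls. Over all genes tested, the SD of log2 differences of exosome replicate 2 was 0.231, 0.203 and 0.201 to control replicates 1, 2 and 3. It was 0.244 and 0.251 to exosome replicates 1 and 3, so the pattern is not particular to DUSP1 and DUSP5.

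**Figure D1:**
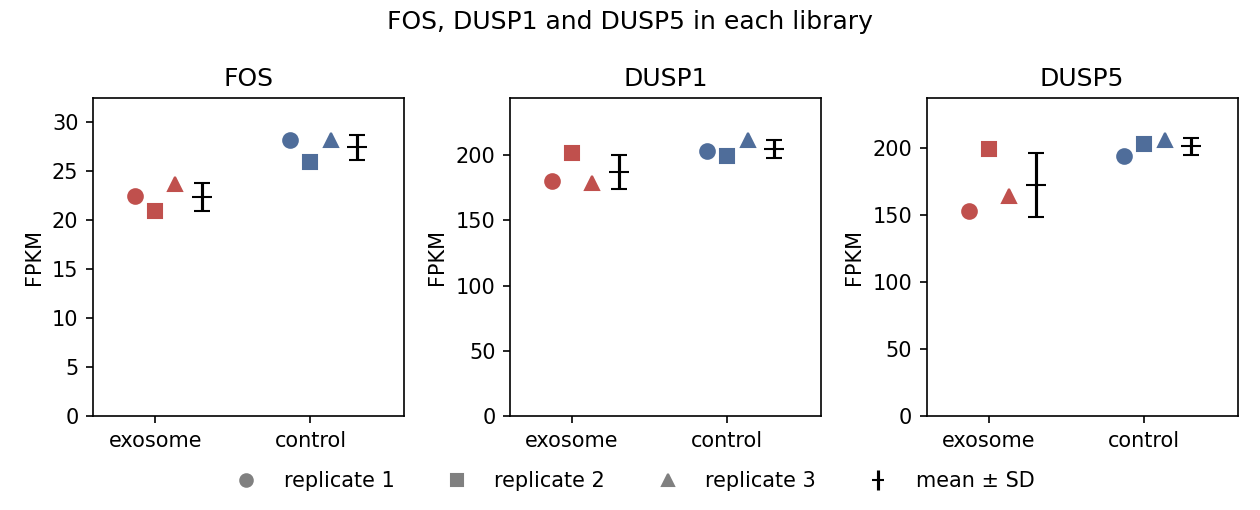
FPKM of FOS, DUSP1 and DUSP5 in each library (marker shape gives the replicate; bars are the group mean ± SD, n = 3; vertical axes start at 0). Exosome replicate 2 is the lowest FOS library at 20.9 FPKM, and lies within the control range for DUSP1 (202 FPKM) and DUSP5 (199 FPKM).

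FPKM is scaled by length, so the levels of the genes can be set side by side. Over the 6 libraries DUSP1 averaged 196 FPKM and DUSP5 187 FPKM, above 95.1% and 94.8% of the genes with values. FOS averaged 24.9 FPKM, above 64.7%. The ranges of DUSP1 and DUSP5 overlapped, and neither overlapped that of FOS.

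Exosome replicate 2 stood in a different place for FOS than for the phosphatases. It ranked 3 from the top of 6 for DUSP1 and DUSP5, and 6 of 6 for FOS. Relative to the control mean, exosome replicates 1, 2 and 3 were at log2 differences of -0.18, -0.02 and -0.19 for DUSP1, -0.39, -0.02 and -0.29 for DUSP5, and -0.28, -0.38 and -0.20 for FOS. DUSP1 and DUSP5 had a Pearson r of 0.94 and a Spearman rho of 0.71 over the 6 libraries, given as a description, since the genes were chosen on these libraries. That value rested on exosome replicates 1 and 3, the libraries farthest from the DUSP1 median: over the other 4 libraries r was 0.39, and without exosome replicate 2 alone it was 0.93. With each group centred on its own mean r was 0.87, and 0.14 when exosome replicate 2 was also left out. Exosome replicates 1 and 3 lay apart from the other 4 libraries for both genes, so no p is given for this r.

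FOS did not share that order. Its r over the 6 libraries was 0.53 with DUSP1 and 0.47 with DUSP5, and both hold the difference between groups, since the FOS groups do not overlap. Centred within groups, r was -0.47 with DUSP1 and -0.64 with DUSP5. Without exosome replicate 2 the uncentred values, which hold the group difference, were 0.95 for DUSP1 and 0.92 for DUSP5, and the values centred within groups were 0.59 for DUSP1 and 0.19 for DUSP5. Among the 3 control libraries, replicate 3 was highest for both phosphatases and second for FOS, and replicate 2 was the lowest control library for FOS and DUSP1 but not for DUSP5.

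**Figure D2:**
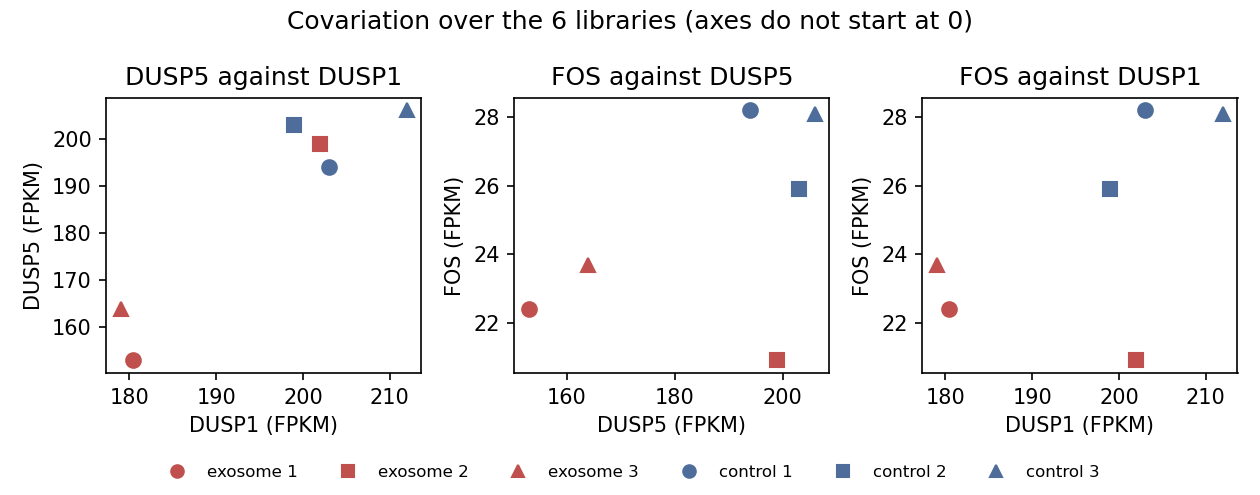
Each pair of the 3 genes plotted as FPKM in the 6 libraries (colour gives the group, marker shape the replicate; axes do not start at 0). Exosome replicate 2 sits among the controls for DUSP5 against DUSP1 and drops to the bottom, at 20.9 FPKM of FOS, in both plots of FOS.

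Genes whose pattern over the 6 libraries was most like each member were ranked by Pearson r on the log2 scale, among 10845 other genes. For FOS, genes among the 5 with the highest r were ADCY6 (0.984), IER5L (0.984), CYB5A (0.983) and CHMP4B (0.979). ADCY6 encodes an adenylyl cyclase. IER5L averaged 7.07 ± 0.544 FPKM in exosome and 8.64 ± 0.424 FPKM in control libraries (SD, n = 3 each), with no overlap and the same library lowest as for FOS. For DUSP1 they included ZNF653 (0.988), IL1R1 (0.986), PPAP2C (0.985) and EMP3 (0.982), of which IL1R1 encodes the interleukin-1 receptor. For DUSP5 they were SC5D (0.998), DPYSL2 (0.997), SPINT1 (0.996), FADS2 (0.996) and F2RL1 (0.996). F2RL1, the protease-activated receptor PAR2, was at 40.6, 59.4 and 45.2 FPKM in exosome replicates 1, 2 and 3, against 55.2, 59.0 and 61.3 FPKM in control replicates 1, 2 and 3. SPINT1, an inhibitor of serine proteases at the epithelial surface, averaged 324 ± 25.6 FPKM in exosome and 359 ± 5.47 FPKM in control libraries (SD, n = 3 each). With only 6 libraries high r is common: 145 genes (1.34%) reached 0.9 with FOS, 301 (2.78%) with DUSP1 and 532 (4.91%) with DUSP5.

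The other genes of the pathway were tested across the whole table with limma. At an adjusted p of 0.05, 0 of 10846 genes passed (0%), and the smallest adjusted p was 0.0833. An unadjusted p under 0.05 was reached by 1362 genes (12.6%), of which 813 (7.50%) were lower and 549 (5.06%) higher in exosome libraries. Of 178 symbols in 9 pathway lists, 117 rows were found and tested, with MAP2K1 and MAPK8 present under 2 identifiers each. Below that unadjusted p, 9 of these rows (7.69%) were lower and 5 (4.27%) higher, shares near those of all genes. The groups did not overlap in 8 rows (6.84%) with lower and 5 (4.27%) with higher exosome values, against 10.4% and 8.29% of all genes. Log2 changes were below 0 in 79 rows (67.5%), against 50.8% of all genes, whose median was -0.00229. That share is a description, since the lists were chosen with earlier results known and the rows share the same libraries. Many of these changes were small, and the list medians lay between -0.09 and 0.07.

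Other AP-1 subunits and partners had log2 changes from -0.25 to 0.16. Of 19 symbols 10 were found (FOSB, FOSL2 and JUND were among those not analysed here), 0 of them passed at either threshold, 9 of 10 log2 changes were below 0 and the median was -0.08 (-0.03 without exosome replicate 1). FOSL1, a FOS-family member that lacks the strong activation domain of FOS, was at 42.2, 49.2 and 45.5 FPKM in exosome replicates 1, 2 and 3, against 49.7, 49.1 and 46.0 FPKM in control replicates 1, 2 and 3 (log2 change -0.08, SE 0.07). At a mean of 46.9 FPKM over the 6 libraries it was more abundant than FOS, and their ranges did not overlap. JUN, the main dimer partner of FOS and listed as C-JUN, averaged 45.9 ± 1.95 FPKM in exosome and 46.4 ± 0.714 FPKM in control libraries (SD, n = 3 each; log2 change -0.02, limma adjusted p = 0.931). JUNB, a JUN relative often induced together with FOS, averaged 70.9 ± 4.31 and 75.4 ± 3.22 FPKM in exosome and control libraries.

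MAFF, a small Maf protein without an activation domain, had the lowest log2 change of the AP-1 list at -0.25 (SE 0.11, limma adjusted p = 0.402). It was at 30.9, 43.4 and 36.4 FPKM in exosome replicates 1, 2 and 3, against 42.9, 44.3 and 43.6 FPKM in control replicates 1, 2 and 3. Exosome replicates 1 and 3 lay below the controls and replicate 2 among them, as for DUSP5, with which MAFF had an r of 0.98 over the 6 libraries. ATF3, a stress-induced repressor that pairs with JUN, was at 104, 126 and 95.5 FPKM in the exosome replicates, against 112, 114 and 112 FPKM in the control replicates, so that exosome replicate 2 held its highest value. ATF4, the most abundant of the list, averaged 640.0 ± 37.3 and 644 ± 11.3 FPKM in exosome and control libraries. MAFK, another small Maf protein, ATF7 and BATF2 had log2 changes of -0.15, -0.10 and -0.10, and ATF2, which binds DNA with JUN, of 0.16.

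The remaining phosphatases of the same family were lower in abundance than DUSP1 and DUSP5. Of 9 symbols 4 were found (DUSP6 and DUSP16 were among those not analysed here), 0 passed at either threshold, and their median log2 change was -0.08. That median was -0.02 without exosome replicate 1 and -0.13 without exosome replicate 2. DUSP7, a cytoplasmic phosphatase for ERK, averaged 28.3 ± 1.27 FPKM in exosome and 28.0 ± 1.07 FPKM in control libraries (SD, n = 3 each; log2 change 0.02). DUSP10, which acts on JNK and p38, was at 6.31, 12.0 and 6.50 FPKM in exosome replicates 1, 2 and 3, against 10.9, 10.5 and 11.1 FPKM in control replicates 1, 2 and 3. Its exosome replicate 2 was the highest of all 6 libraries and the other exosome replicates were far below every control. The log2 change of DUSP10 was -0.41 (SE 0.20, limma adjusted p = 0.451), and without exosome replicate 2 it was -0.68 (limma adjusted p = 0.00856). The second fit leaves out the highest DUSP10 library and keeps only exosome replicates 1 and 3, so its p is no support for a lower DUSP10. In that fit 2.74% of all genes tested passed, against 0% with all 6 libraries. DUSP4, a nuclear phosphatase, was at 12.2, 15.1 and 11.4 FPKM in the exosome replicates, against 14.1, 13.5 and 14.2 FPKM in the control replicates. DUSP2, also nuclear, stayed near 1 FPKM, with 1.22 ± 0.278 and 1.28 ± 0.0688 FPKM in exosome and control libraries. By mean level over the 6 libraries the order was DUSP1, DUSP5, DUSP7, DUSP4, DUSP10 and DUSP2, and the ranges of DUSP1 and DUSP5, and of DUSP4 and DUSP10, overlapped.

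**Figure D3:**
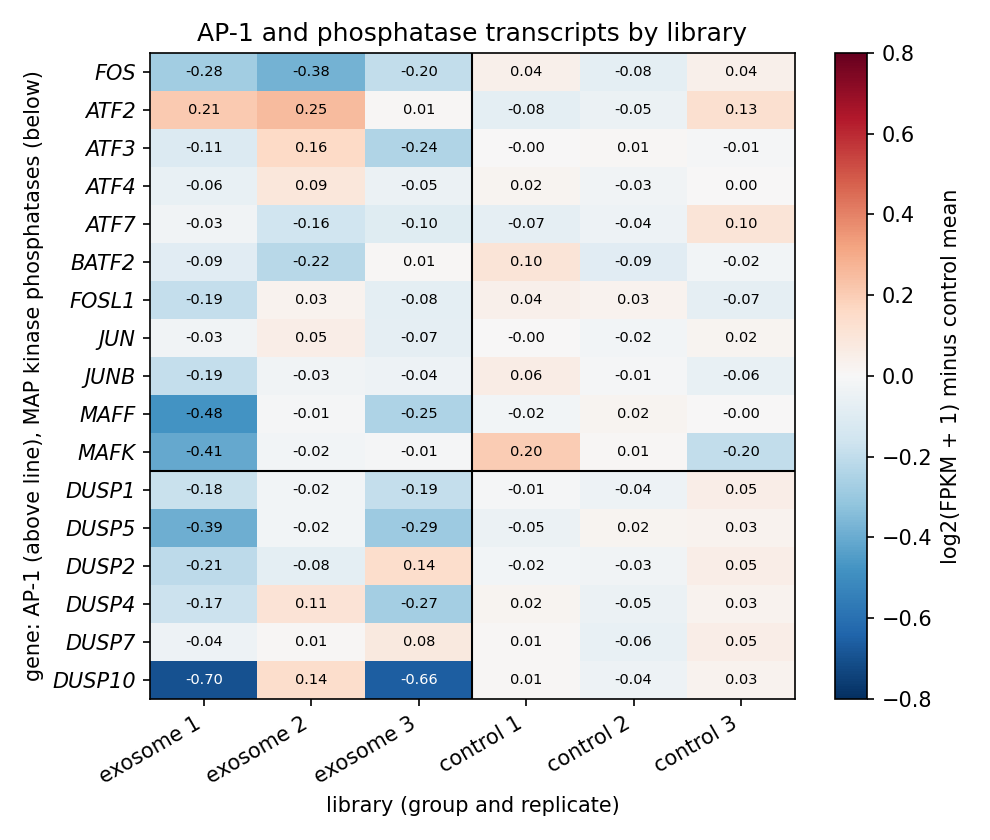
Difference of log2(FPKM + 1) from the control mean for FOS and other AP-1 genes (above the line) and for MAP kinase phosphatases (below), 1 column per library. DUSP1, DUSP5, DUSP10, DUSP4 and MAFF are blue in exosome replicates 1 and 3 and near 0 or red in replicate 2, while FOS is blue in all 3, at -0.28, -0.38 and -0.20.

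Exosome replicates 1 and 3 lay below all controls, with replicate 2 not below them, in 37 of the 117 listed rows (31.6%), against 10.6% of all genes; this pattern was counted after the values were seen. It held in 5 of 10 AP-1 genes (FOSL1, JUN, ATF3, ATF4 and MAFF), 2 of 4 phosphatases (DUSP4 and DUSP10), 8 of 21 other immediate early genes, 8 of 23 rows of the ERK cascade and 4 of 7 of SRF and its partners. The counts were 4 of 17 rows of the JNK and p38 cascade (23.5%), 3 of 15 ERK feedback and target genes (20.0%), 2 of 10 atypical phosphatases (20.0%) and 1 of 10 genes of the EGF family (10.0%). These rows share the same 6 libraries and are not independent of each other.

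Other immediate early genes, induced by the same signals, had a median log2 change of -0.05 over 21 rows. An unadjusted p under 0.05 was reached by 2 lower rows (9.52%) and 1 higher row (4.76%), near the 7.50% and 5.06% of all genes. SGK1, a serum-induced kinase, averaged 183 ± 5.73 FPKM in exosome and 206 ± 7.07 FPKM in control libraries (SD, n = 3 each; log2 change -0.16, limma adjusted p = 0.284). NR4A2, an orphan nuclear receptor, was at 7.63, 7.84 and 6.89 FPKM in the exosome replicates, against 8.50, 10.0 and 8.82 FPKM in the control replicates (log2 change -0.26, limma adjusted p = 0.313). NFKBIZ, a nuclear regulator of NF-kB, was higher, at 9.66, 7.54 and 9.41 FPKM in the exosome replicates, against 7.53, 7.22 and 7.23 FPKM in the control replicates. Like FOS, these 3 genes had groups that did not overlap, as did 18.7% of all genes tested. The abundant IER3 and CYR61 had a log2 change of -0.10 each. EGR1, chosen after its values were seen because it shares serum response elements with FOS, averaged 6.83 ± 0.962 and 7.98 ± 0.877 FPKM in exosome and control libraries, with overlapping groups.

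Of the kinases upstream of FOS, few had an unadjusted p under 0.05. The ERK cascade had a median log2 change of -0.03 over 23 rows, with 1 lower at an unadjusted p under 0.05 (4.35%, against 7.50% of all genes). That row was MAP2K1, which encodes the ERK kinase MEK1, at 154 ± 15.5 FPKM in exosome and 174 ± 7.57 FPKM in control libraries (SD, n = 3 each; limma adjusted p = 0.388). Its second identifier averaged 72.9 and 78.3 FPKM in exosome and control libraries, so the split of MAP2K1 reads between the identifiers is uncertain. RRAS and ARAF had log2 changes of -0.09 and -0.06. The JNK and p38 cascade had a median of -0.01 over 17 rows. At that p 1 row was lower (5.88%) and 1 higher (5.88%), against 7.50% and 5.06% of all genes. The lower row was MAPKAPK3, a kinase activated by p38 (log2 change -0.14). The higher row was 1 of the identifiers of MAPK8, the kinase JNK1, at 12.5 ± 0.123 FPKM in exosome and 10.4 ± 1.16 FPKM in control libraries, whereas the other identifier had a log2 change of 0.03. MAP2K7 and MAPKAPK2 had log2 changes of -0.19 and -0.06.

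Feedback and target genes of ERK signalling had log2 changes of both signs, with a median log2 change of -0.04 over 15 rows. An unadjusted p under 0.05 was reached by 3 lower rows (20.0%) and 2 higher rows (13.3%), against 7.50% and 5.06% of all genes. SPRY2, a feedback inhibitor of receptor tyrosine kinases, was at 14.8, 19.3 and 16.1 FPKM in exosome replicates 1, 2 and 3, against 22.1, 25.8 and 24.2 FPKM in control replicates 1, 2 and 3. The SPRY2 groups did not overlap, and its log2 change of -0.50 (SE 0.10, limma adjusted p = 0.202) was the lowest in the 9 lists. LIF, a cytokine of embryo implantation, averaged 20.5 ± 1.33 FPKM in exosome and 25.9 ± 3.07 FPKM in control libraries (SD, n = 3 each; limma adjusted p = 0.284). CXCL8, a neutrophil attractant, was higher, at 467 ± 113 and 270.2 ± 60.4 FPKM in exosome and control libraries (log2 change 0.78, limma adjusted p = 0.250). PHLDA2 and CCND1, the cyclin D1 gene, had log2 changes of -0.15 and -0.11.

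SRF, the factor that binds the serum response element of the FOS gene, was listed with its partners and with other regulators of FOS, ATF1 and STAT3. This list, called SRF and its partners throughout, had a median log2 change of -0.09 over 7 rows, with 0 passing at either threshold. That median was -0.15 without exosome replicate 2 and -0.02 without exosome replicate 3. ATF1, STAT3 and ELK3 had log2 changes of -0.24, -0.09 and -0.11. EGF family ligands and receptors, which feed the ERK cascade, had a median of 0.07 over 10 rows. ERBB3, a receptor for neuregulins, was at 41.6, 51.5 and 45.3 FPKM in the exosome replicates, against 53.5, 56.8 and 57.3 FPKM in the control replicates (log2 change -0.28, limma adjusted p = 0.284). Its ligand NRG1 was at 16.6, 14.5 and 16.1 FPKM in the exosome replicates, against 14.8, 11.8 and 9.79 FPKM in the control replicates (log2 change 0.36, limma adjusted p = 0.342). The abundant ligands AREG and EREG averaged 368 ± 24.1 and 1004 ± 62.2 FPKM in exosome libraries and 340.0 ± 23.1 and 1006 ± 80.4 FPKM in control libraries, and ERBB2 had a log2 change of -0.12. The list of atypical dual-specificity phosphatases, which lack the MAP kinase binding domain of DUSP1 and DUSP5, also held slingshot phosphatases (SSH genes). Its median was -0.04 over 10 rows. DUSP28 was the 1 row (10.0%, against 7.50% of all genes) lower at an unadjusted p under 0.05, at 3.94 ± 0.345 and 4.78 ± 0.292 FPKM in exosome and control libraries. DUSP14, SSH3 and DUSP11 had log2 changes of -0.17, -0.10 and -0.02.

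**Figure D4:**
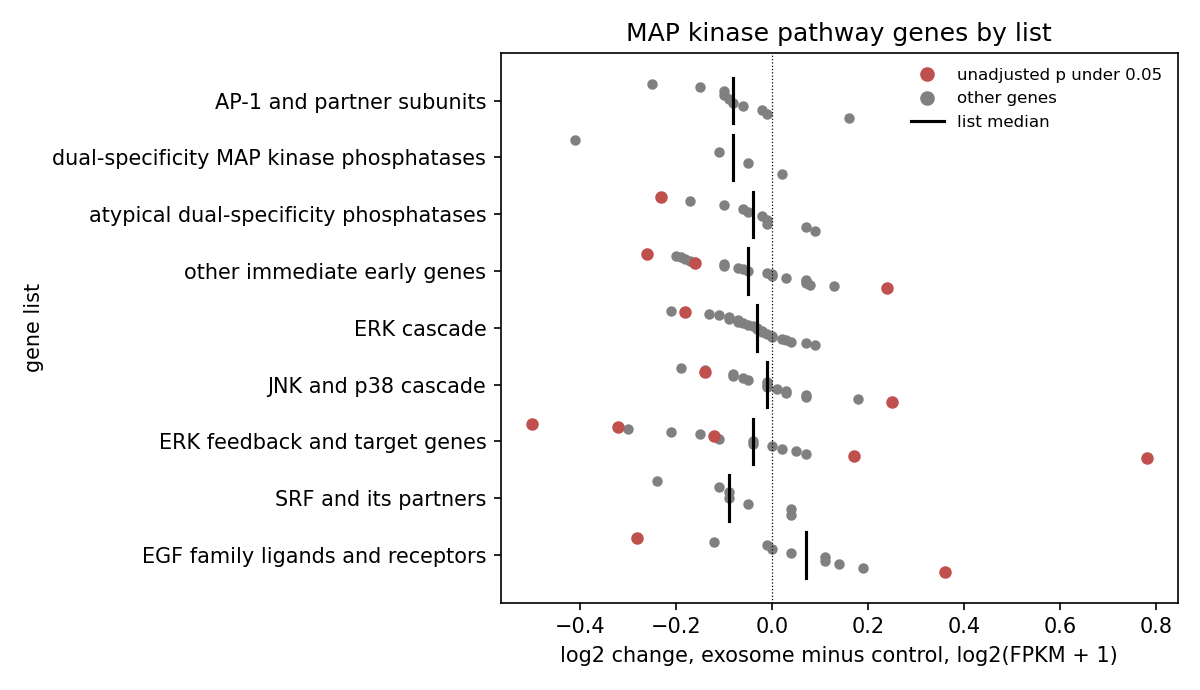
Log2 change, exosome minus control, of each row in the 9 pathway lists (points; red marks an unadjusted p under 0.05, black bars the list medians). The medians lie between -0.09 and 0.07, with SPRY2 at -0.50 and CXCL8 at 0.78 as the lowest and highest rows.

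Without exosome replicate 2, 297 of all genes tested passed an adjusted p of 0.05 (2.74%), 204 lower (1.88%) and 93 higher (0.857%). Leaving out any other single library gave 0 or 1 genes passing. Among the 117 listed rows, 7 were then lower and 1 higher without exosome replicate 2. These counts are a description, since the rows share the same libraries and the lists were chosen with earlier results known. The lower ones included DUSP10, DUSP14, SPRY2, ERBB3 and, chosen after their values were seen, PPP1R15A and PLAUR, and the higher one was CXCL8. In DUSP10, DUSP14, PPP1R15A and PLAUR the omitted library was the highest of all, so these rows pass through the omission itself. For SPRY2, ERBB3 and CXCL8 it was the exosome library nearest the controls. With all 6 libraries their limma adjusted p was 0.202, 0.284 and 0.250, so they too pass only through the omission. PLAUR, the urokinase receptor, was at 147, 251 and 155 FPKM in exosome replicates 1, 2 and 3, against 213, 221 and 227 FPKM in control replicates 1, 2 and 3. In PLAUR exosome replicate 2 was the highest library and the other exosome replicates were the lowest. PPP1R15A, a stress-induced phosphatase subunit, showed the same order, with 34.6, 48.5 and 34.8 FPKM in the exosome replicates, against 44.5, 43.6 and 44.8 FPKM in the control replicates.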

How the data were processed

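A stranded TruSeq mRNA kit was used for the libraries, per the labels' protocols. The submitters' processing notes name bcl2fastq 1.8.4, TopHat, Cufflinks and the assembly Sscrofa11.1. Not given in the sources used here are other versions, the annotation release and any filter. What the authors deposited was read as FPKM because Cufflinks gives that unit and the values fit it, since no header states one. The table held 10916 rows, 1 without values. No value was 0 (the lowest was 0.0882), and every gene reached 1 FPKM in at least 1 library, so silent genes cannot be seen. Steps of whole reads could not be found among low values, so depth is unknown and no count model or counting interval was used.

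Columns were matched to samples by title. The 10846 genes averaging 1 FPKM or more were tested on log2(FPKM + 1) with limma 3.58.1 in R 4.3.3 (two-sided, intensity trend, 4 residual degrees of freedom, Benjamini-Hochberg over all genes tested). Figures used Python 3.11.15 and matplotlib 3.10.9. The fit was tested on simulated data with planted log2 changes larger than any printed here. That run does not show how well smaller changes are found.

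The members and lists were chosen with earlier results of these data known, and the limma SE of a member is given without p. Named genes were the members, all measured AP-1 genes and MAP kinase phosphatases, from each other list the 3 rows with the smallest p and the 2 with the highest mean, and the 5 named genes most like each member. The separate values of 3 genes that this rule takes are not reported here. List symbols were matched by the table's symbol, then by a synonym or identifier in the reference tables. Alternatives were pseudocounts of 0.1 and 5, no filter or a mean of at least 5 FPKM, median scaling, quantile normalization, no intensity trend, the replicate number as a block, and leaving out each library or each replicate number. No promoter or protein sequences were used here.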

Additional observations from a re-analysis of the deposited data

How the results depend on the processing

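The log2 changes of FOS, DUSP1 and DUSP5 stayed below 0 under all 17 alternatives. That sign is no support for a difference, since these genes were picked for lower values in exosome libraries. For FOS no omission could change the sign, because its groups do not overlap. Filters, the intensity trend and the replicate block cannot alter a log2 change in this balanced design. Leaving out libraries gave -0.33 to -0.24 for FOS, -0.21 to -0.07 for DUSP1 and -0.34 to -0.16 for DUSP5. Among list medians, the same omissions gave -0.10 to -0.01 for AP-1 (-0.09 to -0.03 when only 1 library was left out), -0.15 to -0.02 for MAP kinase phosphatases, -0.15 to -0.01 for SRF and its partners, -0.07 to -0.02 for atypical phosphatases, -0.11 to 0.00 for other immediate early genes, -0.07 to -0.02 for the ERK cascade, -0.06 to 0.01 for JNK and p38, -0.11 to 0.02 for ERK feedback and target genes, and 0.04 to 0.12 for the EGF family. The number of genes passing an adjusted p of 0.05 in limma was 0 to 297 over these omissions (58 without replicate 2 of both groups, 1 without control replicate 3 or replicate 3 of both groups), and 0 under every other alternative. At an unadjusted p under 0.05 it was 651 to 2392 over the omissions (802 without exosome replicate 1, 886 when both replicates 3 were omitted), and groups did not overlap in 2653 to 5190 genes (4438 without exosome replicate 2, 4035 and 4456 without replicates 1 and 3 of both groups), where fewer libraries must be separated. The cause of the other shifts was not tested.

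With the replicate number as a block, FOS was at -0.29, DUSP1 at -0.13 and DUSP5 at -0.23, and 1329 genes had an unadjusted p under 0.05, with 0 passing after adjustment. Over genes, deviations of same-numbered libraries had correlations of 0.161, 0.144 and -0.0701, and exosome replicate 2 correlated best with control replicate 3 (0.169), so the numbers were not taken as pairs. Unknown depth limits what can be said of low genes such as DUSP2.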
